A study of Mus musculus with 13 samples.

Results

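Gamma delta T cell genes were followed in sorted thymocytes of mice with and without a floxed Opa1 gene. They were the constant gene of the TCR delta chain (Trdc), 3 constant genes of the TCR gamma chain (Tcrg-C1, Tcrg-C2 and Tcrg-C4), the delta variable segment Trdv4, the transcription factors Sox13 and Maf, the kinase gene Blk and the scavenger receptor gene Cd163l1. These 9 genes, of 47937 in the count table, were chosen by name as genes of gamma delta T cells. Maf was among them because its level differed between the genotypes in DN4 in earlier results of these data, so that difference is described here and not tested. RNA came from DN3 (CD44low CD25high) and DN4 (CD44low CD25low) thymocytes of 7 C57BL/6 mice aged 6 weeks. The Wt;Lck-Cre+ mice, called Wt here, carry Cre but no floxed Opa1, and the Opa1fl/fl;Lck-Cre+ mice carry Cre and floxed Opa1 and are called KO here, as their labels do. Cre was driven by the Lck promoter in both genotypes, and the study used it to delete Opa1 from the DN stage on. Whether other cells of the thymus express it was not tested here. There were 3 KO and 3 Wt libraries of DN3 and 3 KO and 4 Wt libraries of DN4, one per mouse and stage, and mouse WT40 gave DN4 alone. The study gated its DN subsets on lineage-negative thymocytes in flow cytometry and also stained DN cells for surface TCR gamma delta, so cells that carry it were not taken out of that gate. The sources used here neither list the lineage markers nor describe the gate of the RNA sort.

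Gamma delta T cells leave the common thymic pathway around the DN2 and DN3 stages, when the TCR gamma, delta and beta loci rearrange. A cell that makes a working gamma delta receptor can take that fate, and a cell that makes a TCR beta chain passes beta-selection with the pre-TCR and goes on through DN4 to the CD4+ CD8+ double positive stage. The gamma and delta loci are transcribed and rearranged in the same DN2 and DN3 precursors, including those that become alpha beta T cells, so a transcript of a constant gene does not by itself mark a gamma delta T cell. The delta genes lie inside the TCR alpha locus and are deleted when the alpha chain rearranges. Sox13 and Maf are transcription factors of gamma delta cells that go on to make IL-17, Blk is a Src-family kinase of these cells and also of B cells, and Cd163l1 encodes a surface scavenger receptor of the same cells.

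Libraries held 5926848 to 14148661 counts, with a median of 10023044. The Wt DN3 library of mouse WT05 stood apart, with 39.97% of its counts on ribosomal RNA-like genes against 0.434% to 1.72% in the others, which left 3557689 counts outside them. Opa1, the targeted gene, was at 88.6 to 93.8 CPM (counts relative to the TMM-scaled library size) in KO and 91.1 to 112 CPM in Wt DN3, and at 76.96 to 87.95 CPM in KO and 85.1 to 93.8 CPM in Wt DN4. The counts per whole gene therefore do not separate the genotypes, which rest on the labels. DN3 markers were present in DN3, where Il2ra, the gene of CD25, was at 727 to 1337 CPM against 9.78 to 24.1 CPM in DN4. Y-linked transcripts were counted in the libraries of mice WT40 and WT46 and in no other mouse, so sex is not balanced between the genotypes.

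The gamma constant genes are close copies of one another, which bears on how their reads could be counted. The first exons of the 4 genes are each 330 bases long, and bases 61 to 180 of each, from GENCODE M21 on GRCm38 and read 5′ to 3′ on the gene's own strand, are shown with each base that differs from Tcrg-C1 in capitals.
Tcrg-C1: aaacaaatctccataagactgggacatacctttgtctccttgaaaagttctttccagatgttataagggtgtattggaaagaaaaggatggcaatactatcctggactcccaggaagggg
Tcrg-C2: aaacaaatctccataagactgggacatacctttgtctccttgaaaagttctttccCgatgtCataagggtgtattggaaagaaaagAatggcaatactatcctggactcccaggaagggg
Tcrg-C3: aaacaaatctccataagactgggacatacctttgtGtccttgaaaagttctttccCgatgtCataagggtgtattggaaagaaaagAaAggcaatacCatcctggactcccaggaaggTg
Tcrg-C4: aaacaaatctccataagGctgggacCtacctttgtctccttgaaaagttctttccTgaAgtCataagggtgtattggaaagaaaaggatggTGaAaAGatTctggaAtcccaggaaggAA
The stretches lie at chr13:19214163-19214282 on the plus strand, chr13:19307372-19307491 on the minus strand, chr13:19260945-19261064 on the plus strand and chr13:19344618-19344737 on the plus strand. In this window Tcrg-C2 differed from Tcrg-C1 at 3 bases, Tcrg-C3 at 7 and Tcrg-C4 at 14. Over the whole exon Tcrg-C1 and Tcrg-C2 were 97.3% identical, and Tcrg-C1 and Tcrg-C4 82.1%. Of the 50-base words in the Tcrg-C1 transcript, 34.2% also occurred in another transcript, Tcrg-C3 or Tcrg-C2, against 25.4% for Tcrg-C2, 39.5% for Tcrg-C3 and 0% for Tcrg-C4. The counts of Tcrg-C1, Tcrg-C2 and Tcrg-C3 are therefore uncertain in how reads were shared or dropped among them, while those of Tcrg-C4 are not affected at this word length. Trdc, at chr14:54142851-54148868, overlaps the antisense gene Gm43434 and the end of Trdv5 on the opposite strand, and 5.92% of its words were shared. The library kit keeps strand, the strand setting of the counting is not given in the sources used here, and Gm43434 held 0 to 6 counts per library against 965 to 7540 for Trdc. Maf, at chr8:115682942-115707794, overlaps Gm15655, which held 0 to 3 counts. Trdv4, at chr14:54074905-54075515, lies wholly opposite Gm30275, which held 3 to 46 counts, as many as or more than Trdv4 in most libraries.

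The members covered a wide range of levels. Per kilobase of exon, the gamma constant genes were highest in DN3, with means in Wt of 613 ± 211 CPM per kb for Tcrg-C2, 431 ± 155 for Tcrg-C1 and 223 ± 69.6 for Tcrg-C4 (SD, n = 3). Trdc followed at 82.7 ± 9.10 CPM per kb, and Cd163l1 (18.4 ± 2.16), Sox13 (16.5 ± 1.91) and Blk (9.88 ± 0.467) lay far below it. Cd163l1 and Sox13 did not differ beyond their spread. Maf was near the bottom at 0.419 ± 0.0566 CPM per kb, and Trdv4 had no count in Wt DN3. In Wt DN4 the order had changed to Tcrg-C2 (228 ± 93.5 CPM per kb), Tcrg-C1 (173 ± 78.1), Tcrg-C4 (144 ± 65.7), Trdc (144 ± 40.2), Blk (63.3 ± 45.9), Sox13 (50.7 ± 26.6), Cd163l1 (29.8 ± 18.2), Maf (9.81 ± 5.06) and Trdv4 (2.68 ± 1.84; SD, n = 4). The first 4 of these overlapped in their spread, as did Blk and Sox13.

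**Figure D1:**
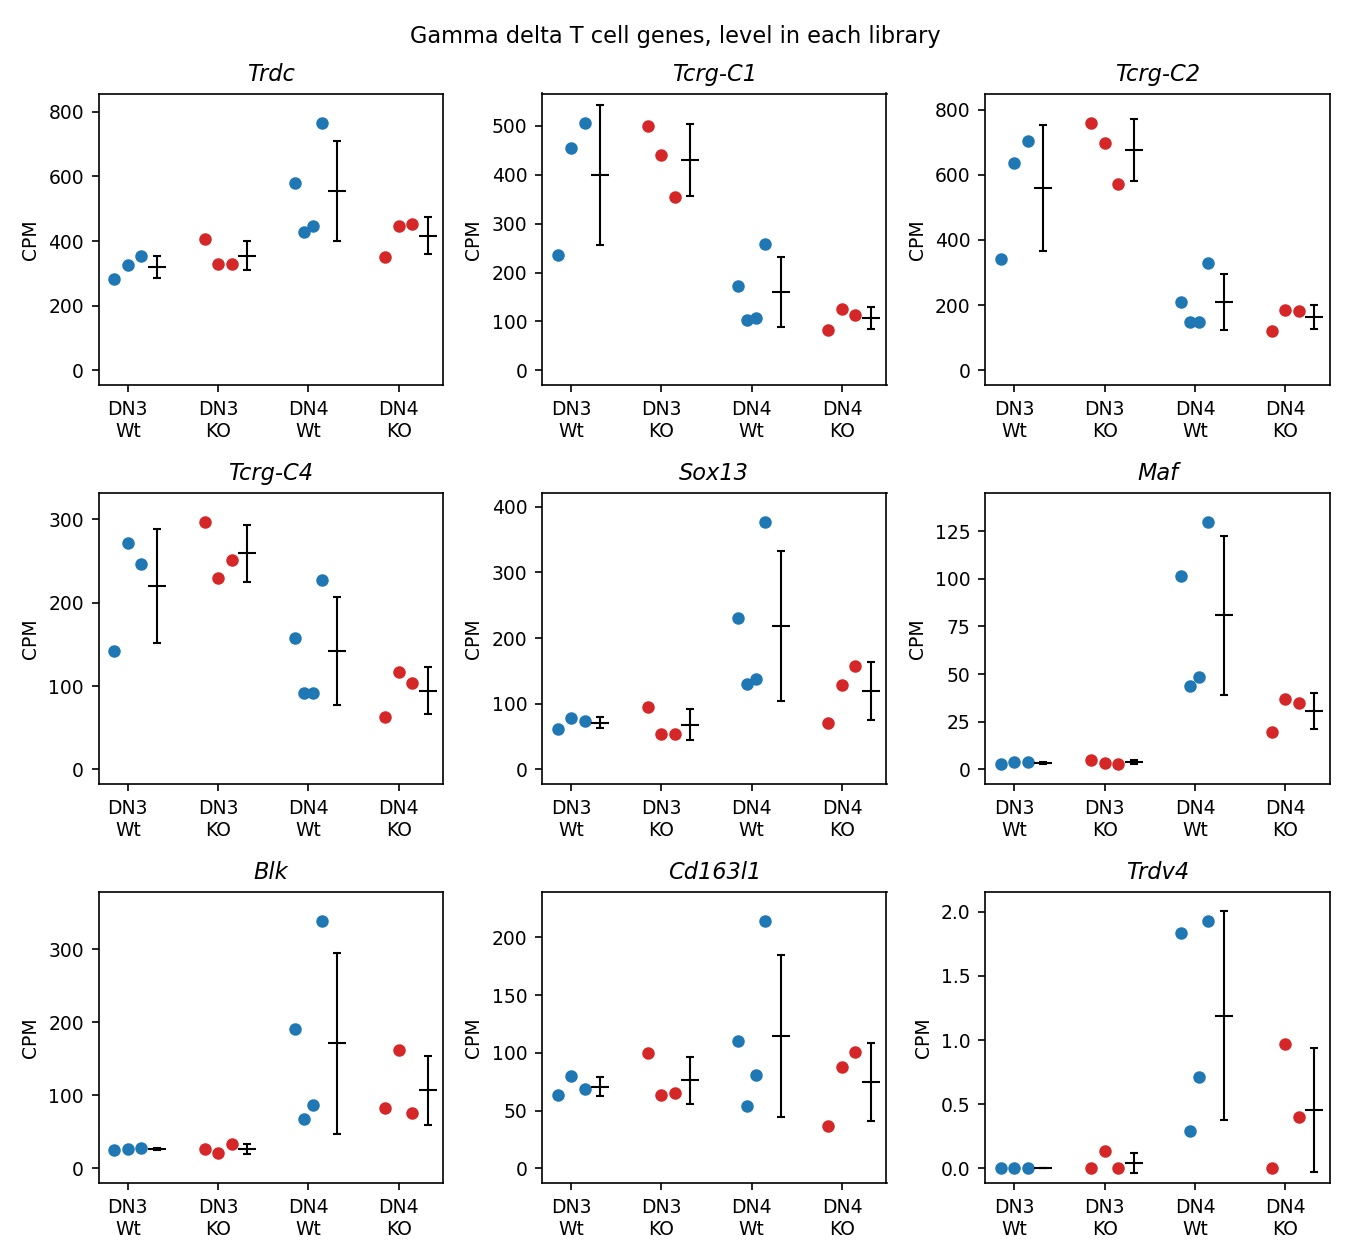
Level of each of the 9 genes in CPM (y axis, linear, a scale of its own for each gene) in every library, by stage and genotype, with blue points for Wt and red points for KO. The black bar beside each group is its mean ± SD (n = 3, or 4 for Wt DN4). The 3 gamma constant genes are higher in most DN3 libraries, Maf and Blk are higher in every DN4 library, and for Sox13, Maf, Blk and Cd163l1 the DN4 Wt points spread most.

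The step from DN3 to DN4 asks how the genes change across beta-selection. In Wt, 6 of the 8 members tested were called, 4 higher in DN4 (Maf, Blk, Sox13 and Trdc) and 2 lower (Tcrg-C1 and Tcrg-C2), where 22.9% of all 12691 genes tested were called (13.4% higher and 9.43% lower). In KO, 5 of 8 were called, Maf and Blk higher and Tcrg-C1, Tcrg-C2 and Tcrg-C4 lower, against 18.6% of 12580 genes (11.2% higher and 7.34% lower). A gene was called at an adjusted p of 0.05 in edgeR, adjusted over every gene tested. Of all 9 members, Trdv4 included although it did not pass the filter, levels of 5 lay wholly higher and of 1 wholly lower in Wt DN4, where 35% of the genes that passed the filter had groups apart (20% higher and 15% lower), and in KO 2 lay higher and 3 lower, where 38.7% did (22% higher and 16.7% lower). Under a block for mouse, 4499 genes were called in KO in place of 2338, and no member's call changed. Both comparisons use the DN4 libraries in which Maf was first noted. Bulk RNA cannot tell fewer cells of a type from less RNA per cell, and that holds for each difference given here.

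Among the receptor genes, the delta constant gene kept or raised its level. Trdc was at 282, 324 and 352 CPM in the Wt DN3 libraries (mice WT05, WT46 and WT48) and at 581, 427, 448 and 765 CPM in those of Wt DN4 (WT05, WT40, WT46 and WT48). In KO it was at 406, 328 and 330 CPM in DN3 (KO45, KO49 and KO51) and at 350, 448 and 454 CPM in DN4. All 4 Wt DN4 libraries lay above the 3 of DN3, whereas the KO groups overlapped through mouse KO45. The log2 fold change was 0.77 ± 0.22 (SE) in Wt (adjusted p = 0.0343, edgeR) and 0.21 ± 0.16 in KO (adjusted p = 0.394, edgeR). The Wt call was lost without any one of the DN3 libraries WT05, WT46 and WT48 or the DN4 library WT05 (adjusted p up to 0.0923, edgeR), with log2 fold changes from 0.57 to 0.88 over all single omissions.

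Tcrg-C1 and Tcrg-C2 fell in both genotypes and Tcrg-C4 in KO. Tcrg-C1 was at 236, 454 and 505 CPM in Wt DN3 and at 173, 103, 108 and 257 CPM in Wt DN4, and at 499, 439 and 354 CPM in KO DN3 against 83.3, 126 and 112 CPM in KO DN4. The KO groups did not overlap, and in Wt the lowest DN3 library, WT05, fell below the highest DN4 library, WT48. It fell by 1.34 ± 0.37 on the log2 scale in Wt (adjusted p = 0.0307, edgeR) and by 2.03 ± 0.20 in KO (adjusted p = 0.000784, edgeR). Tcrg-C2, its near copy, was at 341, 635 and 704 CPM in Wt DN3 and at 209, 147, 149 and 330 CPM in Wt DN4, with KO at 758, 698 and 570 CPM in DN3 and 121, 186 and 182 CPM in DN4. Neither genotype's groups overlapped, and it fell by 1.45 ± 0.34 in Wt (adjusted p = 0.0165, edgeR) and by 2.08 ± 0.21 in KO (adjusted p = 0.000771, edgeR).

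Tcrg-C4, whose sequence can be told from the others, was at 142, 271 and 246 CPM in Wt DN3 and at 158, 91.1, 91.9 and 227 CPM in Wt DN4. Its Wt groups overlapped, with a log2 fold change of -0.66 ± 0.35 that was not called (adjusted p = 0.224, edgeR), and within mouse WT05 it was 0.15 higher in DN4. In KO it was at 297, 230 and 251 CPM in DN3 and at 63.1, 117 and 104 CPM in DN4, with no overlap, and fell by 1.48 ± 0.23 (adjusted p = 0.00469, edgeR). In Wt, leaving out 1 library ended the call of Tcrg-C1 for each library but DN3 WT05 and DN4 WT48, and that of Tcrg-C2 for DN3 WT46, DN3 WT48 and DN4 WT05, with adjusted p up to 0.103 and 0.0622 (edgeR). Without the mice WT40 and WT46 the Wt changes of Tcrg-C1 and Tcrg-C2 were -0.82 and -0.99 (adjusted p = 0.234 and 0.162, edgeR). The KO calls of the 3 genes held under every single omission.

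A ratio within a library does not depend on its scaling. The summed counts of Tcrg-C1, Tcrg-C2 and Tcrg-C4 per count of Trdc were 3.83, 4.18 and 3.56 in KO DN3 and 2.55, 4.19 and 4.13 in Wt DN3, and 0.764, 0.959 and 0.877 in KO DN4 and 0.929, 0.799, 0.779 and 1.06 in Wt DN4. Every DN3 library thus held over 2 gamma constant counts for each delta constant count and every DN4 library about 1 or fewer. The ratio was chosen after the levels were seen and was not tested.

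The other gene segments of the loci were called lower more than higher for gamma and higher more than lower for delta, without a test of gamma against delta. Of the 21 further segments in the table, 14 passed the filter in each stage comparison. Of the 9 gamma segments among them, 3 fell and 0 rose in Wt, and 6 fell and 0 rose in KO, where 9.43% and 7.34% of all genes fell. Their median log2 fold changes were -0.91 and -1.77, against -0.03 and -0.02 over all genes. Joining segments and Tcrg-C3 fell most: Tcrg-C3 was at 6.14, 9.91 and 12.1 CPM in Wt DN3 and at 1.58, 0.976, 1.81 and 4.06 CPM in Wt DN4, a fall of 2.20 ± 0.47 (adjusted p = 0.0110, edgeR). Trgj1 and Trgj2, picked after their values were seen, fell by 1.89 and 2.08 in Wt and by 2.54 and 2.72 in KO (adjusted p from 0.00104 to 0.00842, edgeR). The variable segment Tcrg-V4 fell in KO by 1.03 ± 0.16 (adjusted p = 0.00431, edgeR) and was at -0.19 ± 0.33 in Wt (adjusted p = 0.724, edgeR). Tcrg-V1, Tcrg-V3 and Tcrg-V7 were called in neither genotype.

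Of the 5 further delta segments tested, 3 rose in both genotypes, Trdv1, Trdv2-2 and Trdv5, where 13.4% (Wt) and 11.2% (KO) of all genes rose, and Trdj1 fell in KO by 1.26 ± 0.30 (adjusted p = 0.0228, edgeR). Trdv2-2, a delta variable segment, was at 1.17, 3.72 and 4.07 CPM in Wt DN3 and at 22.2, 17.6, 15.7 and 33.2 CPM in Wt DN4, and at 4.54, 4.26 and 4.22 CPM in KO DN3 and 12.96, 14.9 and 15.3 CPM in KO DN4. Neither genotype's groups overlapped, and the log2 fold changes were 2.74 ± 0.40 in Wt (adjusted p = 0.0022, edgeR) and 1.70 ± 0.20 in KO (adjusted p = 0.00147, edgeR). Trdv1 rose by 2.58 ± 0.35 and 1.19 ± 0.31 (adjusted p = 0.00159 and 0.0339, edgeR) and Trdv5 by 1.94 ± 0.44 and 1.38 ± 0.26 (adjusted p = 0.0152 and 0.00887, edgeR) in Wt and KO. Trdv5 shares 207 bases with Trdc on the opposite strand, and Trdv2-2 lies opposite the antisense gene Gm43647. These 3 delta variable segments thus rose while the delta constant gene changed by under 1 log2 unit.

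The member Trdv4 itself was rare. It had 0 counts in all 3 Wt DN3 libraries and 22, 3, 9 and 19 in those of Wt DN4 (WT05, WT40, WT46 and WT48), and 0, 1 and 0 counts in KO DN3 and 0, 14 and 4 in KO DN4 (KO45, KO49 and KO51). Its filter was passed only in the DN4 genotype comparison, so the stage change has no test. Summed over the libraries, 53 counts in Wt DN4 against a limit of 3 over the 3 DN3 libraries make it at least 9.39-fold higher. In KO, 18 counts against 1 give a ratio of 14 (exact 95% interval 2.20 to 582, counting error only). Gm30275 on the opposite strand held 3 to 46 counts in DN3 and 6 to 18 in DN4, and the bound and ratio assume that its reads were kept apart from those of Trdv4.

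**Figure D2:**
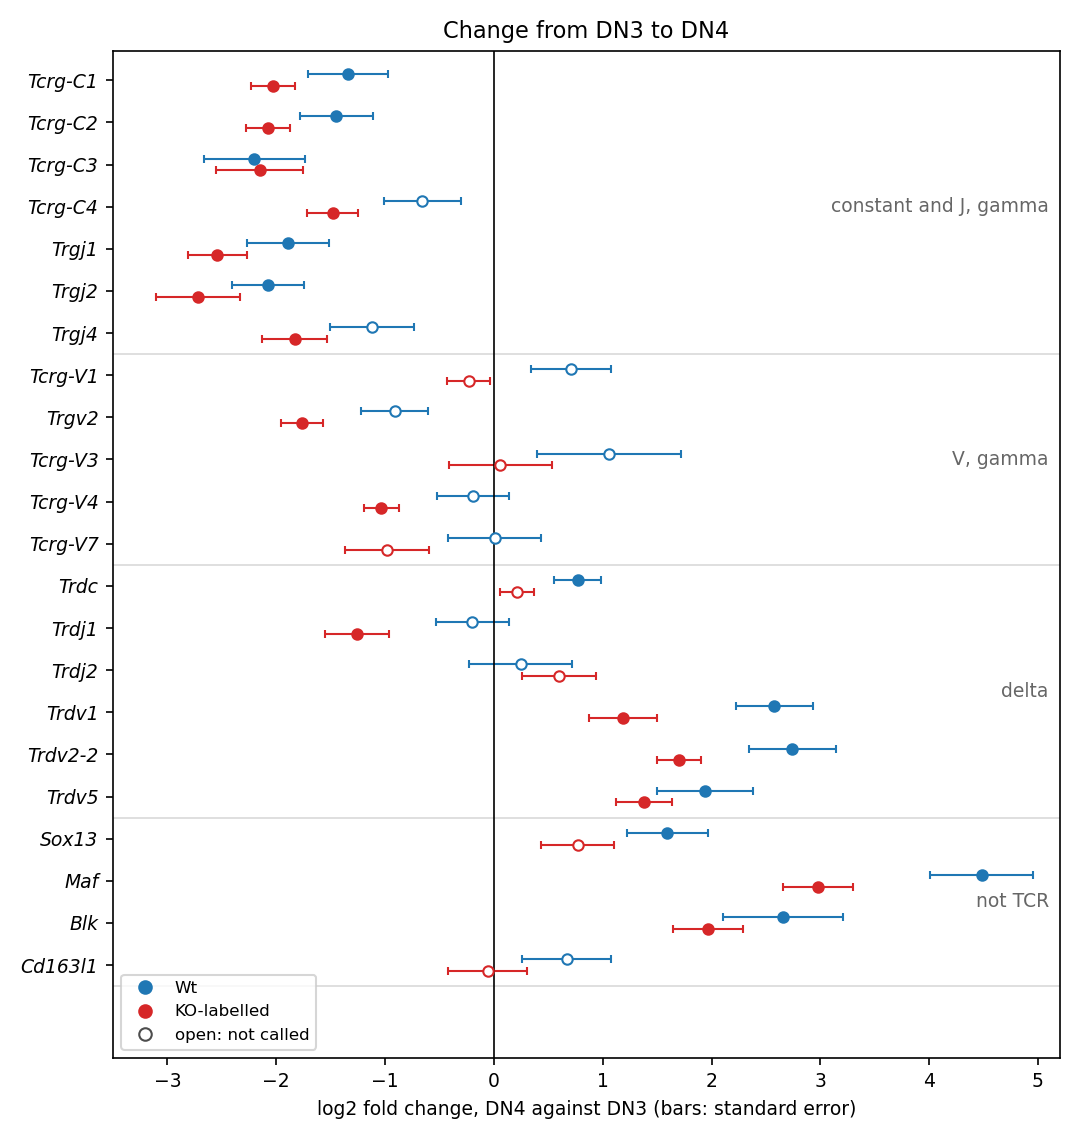
Log2 fold change from DN3 to DN4 (x axis) for each TCR gamma and delta segment tested and the 4 members outside the TCR loci (y axis), in Wt (blue) and KO (red), with standard errors as bars and filled points for calls at an adjusted p of 0.05. Gamma constant and joining segments lie left of 0 in both genotypes, the 3 delta variable segments lie right of it, and Maf lies farthest right at 4.48 and 2.98. Trdv4 is left out because it did not pass the filter.

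Both transcription factors were higher in Wt DN4. Maf rose from 2.93, 3.81 and 3.63 CPM in Wt DN3 to 101, 43.9, 48.6 and 130 CPM in Wt DN4, and from 4.87, 3.33 and 3.04 CPM in KO DN3 to 19.7, 36.8 and 34.9 CPM in KO DN4. The 2 stages were well apart in both genotypes. The log2 fold changes were 4.48 ± 0.48 (adjusted p = 0.000484, edgeR) and 2.98 ± 0.32 (adjusted p = 0.00106, edgeR), and both calls held under every omission of a single library. In DN3 the counts of Maf were 10 to 59 per library.

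Sox13, which is expressed from the earliest thymic progenitors on, was at 61.7, 77.6 and 73.6 CPM in Wt DN3 and at 230, 130, 138 and 377 CPM in Wt DN4. In KO it was at 95.5, 53.9 and 54.5 CPM in DN3 and at 70.5, 128 and 157 CPM in DN4. The Wt groups did not overlap, and the KO groups did through mouse KO45, where Sox13 was lower in DN4 than in DN3. The log2 fold change was 1.60 ± 0.37 in Wt (adjusted p = 0.0164, edgeR) and 0.77 ± 0.34 in KO (adjusted p = 0.153, edgeR). The Wt call was lost without DN3 WT46 or DN3 WT48 (adjusted p = 0.0507 and 0.0559, edgeR), and without DN4 KO45 the KO change was 1.01 and called (adjusted p = 0.0427, edgeR).

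Blk was at 25.5, 26.6 and 28.0 CPM in Wt DN3 and at 191, 68.1, 86.9 and 338 CPM in Wt DN4, and at 25.8, 20.8 and 33.8 CPM in KO DN3 and 82.8, 162 and 75.8 CPM in KO DN4. Every DN4 library was above every DN3 library, and the log2 fold changes were 2.65 ± 0.55 (adjusted p = 0.0100, edgeR) and 1.97 ± 0.32 (adjusted p = 0.00521, edgeR). B cell markers moved with it. All 8 of the markers listed rose in DN4 in both genotypes, their summed level was 285 to 427 CPM in DN3 and 945 to 5784 CPM in DN4, and no marker was at 0 in DN4. Their median log2 fold change was 6.72 in Wt and 7.68 in KO, and 4 of the 8 passed the filter in the DN3 libraries alone, so the others passed through DN4. Without the 4 DN4 libraries richest in B cell counts (KO45, KO49, WT05 and WT48, an alternative added after the data were seen), the log2 fold change of Blk was 1.52 in Wt and 1.495 in KO, on 2 and 1 DN4 libraries, so the KO value rests on a single DN4 library. The libraries kept still held B cell markers at 945 CPM (KO51), 1121 CPM (WT40) and 1299 CPM (WT46), above every DN3 library. The part of B cells in the rise of Blk was not tested.

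Cd163l1 was called in neither genotype. It was at 63.8, 80.0 and 68.6 CPM in Wt DN3 and at 110, 54.0, 80.4 and 214 CPM in Wt DN4, and at 99.8, 63.3 and 65.3 CPM in KO DN3 and 36.4, 87.6 and 100 CPM in KO DN4. The groups overlapped in both genotypes, with log2 fold changes of 0.67 ± 0.41 in Wt and -0.06 ± 0.36 in KO (adjusted p = 0.288 and 0.930, edgeR). Without mice WT40 and WT46 the Wt change was 1.26 and called (adjusted p = 0.0425, edgeR), and without the B-cell-rich libraries it was -0.10.

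Genes of the pathways around the receptor are given beside the share of all genes called, in Wt 13.4% higher and 9.43% lower and in KO 11.2% higher and 7.34% lower, and beside a median log2 fold change of all genes of -0.03 and -0.02. Of 10 genes listed for the gamma delta TCR signal, 9 rose and 1 (Myb) fell in Wt, and 9 rose and 0 fell in KO, with median log2 fold changes of 2.71 and 2.52. Many of them are also induced by the pre-TCR. In the DN3 libraries alone 9 of the 10 passed the filter. Egr3, an early growth response factor, did not, so it passed through DN4, where it is high, and had to differ. Its rise is a description, from 0.354 to 1.17 CPM in Wt DN3 to 11.3 to 36.8 CPM in Wt DN4 (log2 fold change 5.08 ± 0.63). Egr2 rose by 3.81 ± 0.32 in Wt (adjusted p = 0.000173, edgeR). Of 16 genes of the IL-17 type, 13 were tested. In Wt 7 rose and 2 fell, and in KO 6 rose and 2 fell, with medians of 1.95 and 1.06. In the DN3 libraries alone 10 of the 16 passed. Ccr6, Zbtb16 and Il1r1 did not, so they passed through DN4, where they are high, and had to differ. Ccr6 and Zbtb16 are among the 7 that rose in Wt. The counts of this list are therefore a description and are not set against the share of all genes. Rora, a transcription factor of IL-17-producing cells, rose from 1.54 to 5.85 CPM in Wt DN3 to 15.9 to 34.1 CPM in Wt DN4 (2.83 ± 0.47, adjusted p = 0.0037, edgeR), while the 2 that fell were the membrane protein genes Tmem176a and Tmem176b, named after their values were seen, Tmem176b by 2.29 ± 0.30 in Wt (adjusted p = 0.00131, edgeR). Il17a, named after its values were seen as the gene of IL-17A itself, had 1 count, in DN4 WT40, and 0 in the other 12 libraries.

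Of 10 genes of the interferon gamma type, 8 were tested in Wt, where 7 rose, and 9 in KO, where 8 rose. In the DN3 libraries alone 2 of the 10 passed the filter, so most of the genes tested passed through DN4, where they are high, and had to differ. Their count is a description and is not set against the share of all genes. With genes that had no count in DN3 set at their lower bound, the medians were 4.99 and 4.96. Il2rb, a receptor chain for IL-2 and IL-15, was at 1.86 to 2.34 CPM in Wt DN3 and 142 to 255 CPM in Wt DN4 (6.42 ± 0.28, adjusted p = 1.6e-05, edgeR). Eomes, a T-box factor, had 0 counts in Wt DN3 and 255 in Wt DN4, at least 45.2-fold higher. Both genes are also expressed by NK cells. Of 7 NK and innate lymphoid markers, all were above 0 in every DN4 library, 4 (Ncr1, Klrb1c, Klre1 and Eomes) were at 0 in Wt DN3, and their part in these changes was not tested. Of 16 lineage factors, 4 rose and 5 fell in Wt and 4 rose and 4 fell in KO. Zbtb16, among the 4 that rose in Wt, did not pass the filter in the DN3 libraries alone. It passed through DN4, where it is high, so its rise is a description. Hes1, a NOTCH target, was lower by 2.79 ± 0.38 in Wt and 3.23 ± 0.30 in KO on the log2 scale (adjusted p = 0.00159 and 0.000578, edgeR). Of 13 alpha beta and pre-TCR genes, 5 rose and 2 fell in each genotype, with Trac, the alpha constant gene, up by 4.83 ± 0.50 in Wt and 3.82 ± 0.29 in KO (adjusted p = 0.000435 and 0.000431, edgeR).

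The comparison of KO with Wt asks whether loss of Opa1 changes these genes at either stage. In DN3, 0 of 8 members were called, against 0% of 12105 genes by edgeR, and 168 genes had an unadjusted p under 0.05 (no member among them). DESeq2 called 3 genes and no member. The members' log2 fold changes ran from -0.07 ± 0.23 for Sox13 to 0.26 ± 0.26 for Tcrg-C2, with Maf at 0.10 ± 0.35 and Trdc at 0.14 ± 0.15, and the groups of every member overlapped, where 6.44% of genes had groups apart (3.1% higher and 3.34% lower). With 3 libraries a side, standard errors of 0.15 to 0.35 leave room for differences of that size. Of the 14 further segments, 3 were past an unadjusted p of 0.05 in DN3, Tcrg-V1 (0.46 ± 0.15), Trdv1 (0.96 ± 0.40) and Trgv2, each with an adjusted p of 1 (edgeR). Of these 14 segments, 4 had every KO DN3 library above every Wt DN3 library (Tcrg-V1, Trdv1, Trdv2-2 and, named after its values were seen, Trgv2) and 0 had every KO library below, against 3.1% and 3.34% of genes. Among the 7 that did not pass the filter, Trdd1 was also wholly higher, on 3 to 5 counts in KO and 0 to 4 in Wt. The segments can share transcripts and are not independent of one another.

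In DN4 every member was lower on average in KO. The log2 fold changes were -1.37 ± 0.41 for Maf, -1.32 ± 0.93 for Trdv4, -0.85 ± 0.41 for Sox13, -0.64 ± 0.54 for Blk, -0.58 ± 0.48 for Cd163l1, -0.55 ± 0.34 for Tcrg-C4, -0.54 ± 0.31 for Tcrg-C1, -0.38 ± 0.20 for Trdc and -0.32 ± 0.29 for Tcrg-C2 (SE, 3 KO and 4 Wt libraries). No member besides Maf, which gets no test here, was called, where 0.0535% of 13084 genes were. Since Maf was chosen from this contrast, nothing is read from that outcome. Maf was the only member whose groups did not overlap, at 19.7 to 36.8 CPM in KO and 43.9 to 130 CPM in Wt, where 7.08% of all genes had groups apart (4.34% lower in KO). All 14 further gamma and delta segments tested were also below 0, with medians of -0.35 for gamma and -0.41 for delta segments against 0.00 over all genes. Trdv2-2 was the only one of them whose groups did not overlap, at 12.96 to 15.3 CPM in KO and 15.7 to 33.2 CPM in Wt. These segments can share transcripts with the constant genes, so they are not taken as separate evidence.

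**Figure D3:**
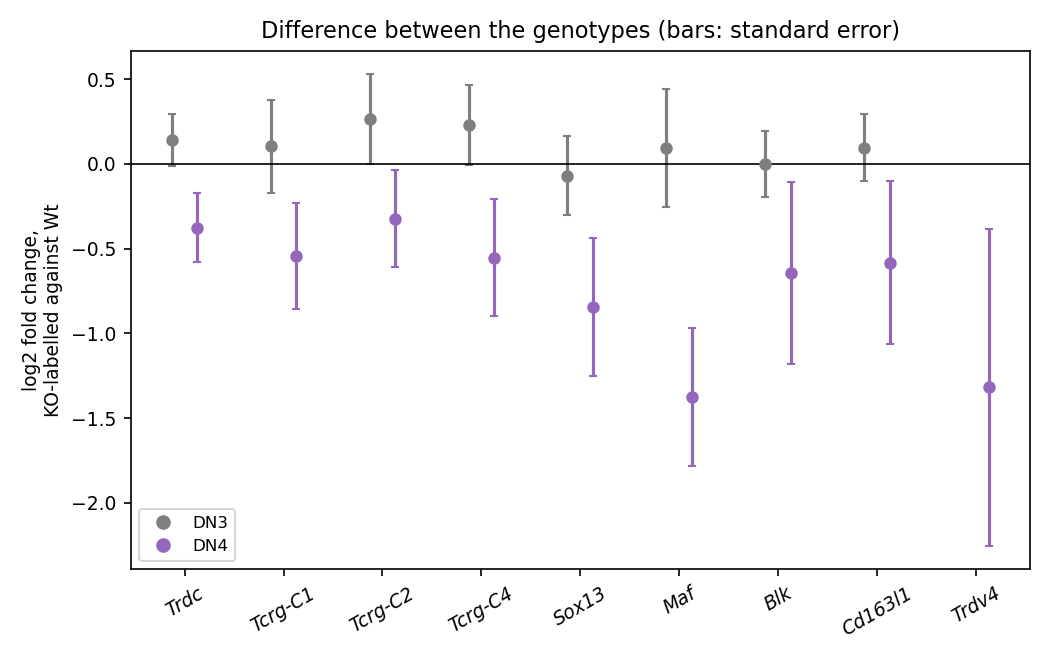
Log2 fold change of KO against Wt (y axis) for each member (x axis) in DN3 (grey) and DN4 (purple), with standard errors as bars. DN3 values lie between -0.07 and 0.26 and DN4 values between -1.37 and -0.32, and Trdv4 has no DN3 value because it did not pass the filter there.

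The DN4 differences depended on which libraries entered. DN4 WT48 was highest of the 7 DN4 libraries for 9 of 9 members and DN4 KO45 lowest for 8 of 9, Blk being lowest in WT40. The Wt libraries WT40 and WT46 lay beside KO49 and KO51 for most members, as with Trdc at 427 and 448 CPM against 448 and 454 CPM. Without DN4 WT48 the differences of Blk and Tcrg-C2 were -0.08 and -0.03, that of Cd163l1 -0.10 and that of Maf -1.06. Without mice WT40 and WT46, the mice with Y-linked counts, they were larger, at -1.88 for Maf, -1.31 for Sox13 and -0.65 for Trdc. Without the 4 B-cell-rich DN4 libraries, which left KO51 against WT40 and WT46, 6 of 8 members turned positive, from 0.07 for Trdc to 0.59 for Cd163l1, and Maf was at -0.39 and Blk at -0.02.

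Maf was also lower relative to the receptor genes. Per 100 counts of the delta and gamma constant genes, Maf had 3.19, 4.19 and 4.08 counts in KO DN4 and 9.02, 5.70, 6.08 and 8.20 in Wt DN4. The groups did not overlap, and the log2 ratio of their means was -0.93, with a pooled SD of 0.29 within groups. Per 100 counts of Trdc alone Maf had 5.63, 8.22 and 7.68 counts in KO DN4 and 17.4, 10.3, 10.8 and 17 in Wt DN4. In DN3 the ratio to the constant genes was 0.195 to 0.290 in all 6 libraries. These ratios do not depend on scaling, and they are a description, because Maf was chosen for its difference in DN4.

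Across the 7 DN4 libraries the 8 members other than Trdv4 ran against the co-receptor Cd8a, which thymocytes switch on as they leave DN4. Cd8a was at 1133, 325 and 434 CPM in KO45, KO49 and KO51 and at 238, 757, 545 and 78.6 CPM in WT05, WT40, WT46 and WT48. Tcrg-C1 fell in the exact reverse order of these 7 libraries, with a Pearson correlation of log2 CPM of -0.98 and a Spearman correlation of -1. The same order held for Tcrg-C2 (-0.99 and -1) and Tcrg-C4 (-0.98 and -1), and for Trdc the values were -0.97 and -0.89. They were -0.96 and -0.96 for Cd163l1, -0.94 and -0.79 for Sox13, -0.92 and -0.82 for Blk and -0.87 and -0.71 for Maf. The 7 libraries share scaling and sum to fixed totals, so a gene that takes a larger share lowers the others. These are descriptions over 7 libraries of both genotypes, with no test.

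The 5 markers of DN4 and later stages summed to 913 to 3086 CPM in KO DN4 and to 458 to 1922 CPM in Wt DN4, against 64.4 to 140 CPM in DN3, and none was at 0. B cell markers summed to 945 to 3649 CPM in KO and 1121 to 5784 CPM in Wt DN4. NK and innate lymphoid markers, mostly Gzma, summed to 230 to 333 CPM in KO and 354 to 449 CPM in Wt DN4, which did not overlap. In DN3, where 4 of the 7 markers were at 0 in each genotype, the sum was 239 to 326 CPM, when Gzma made up most of it. The log2 differences between KO and Wt DN4 were -1.18 for Klrd1, -0.79 for Eomes, -0.71 for Nkg7 and -0.28 for Gzma, and 0.16 for Klrb1c, 0.31 for Klre1 and 0.03 for Ncr1. Nkg7 was at 36.1 to 45.8 CPM in KO and 60.6 to 74.2 CPM in Wt DN4, with no overlap. Eomes did not overlap either, at 2.79 to 3.53 and 4.77 to 6.54 CPM, while the groups of Gzma overlapped. Over all genes 7.08% had groups apart in DN4 (4.34% lower in KO). None of the 7 markers was called between the genotypes in DN4 by edgeR. Blk followed the summed B cell markers, with correlations of 0.92 (Pearson) and 0.89 (Spearman), and followed Trdc at 0.86 and 0.68. Maf followed Trdc at 0.95 and 0.75, and Cd163l1 followed it at 0.94 and 0.96. Maf followed the summed NK and innate lymphoid markers at 0.93 and 1. The part of these cell types in the genotype difference was not tested.

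**Figure D4:**
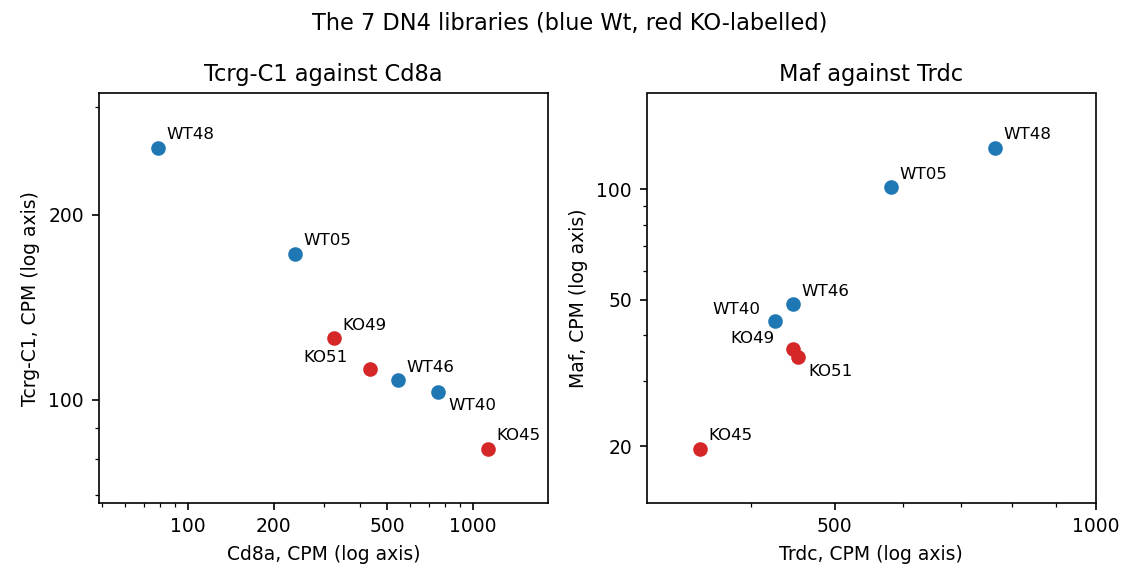
The 7 DN4 libraries, with Wt in blue and KO in red, each point named by its mouse and both axes logarithmic in CPM. On the left Tcrg-C1 falls as Cd8a rises, and on the right Maf rises with Trdc, with the 3 KO libraries at 19.7 to 36.8 CPM of Maf below the 4 Wt libraries.

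Whether the stage change itself differed between the genotypes was tested as an interaction over all 13 libraries. None of the 7 members tested besides Maf was called, nor any of 13361 genes by edgeR (0%), with 480 genes at an unadjusted p under 0.05, and DESeq2 called 2 genes and no member. The differences in log2 change, KO minus Wt, ran from -0.56 ± 0.28 for Trdc to -0.82 ± 0.48 for Tcrg-C4, and Maf, which gets no test here because the contrast holds the DN4 difference it was chosen for, was at -1.503 ± 0.59. A call in Wt and none in KO, as for Trdc and Sox13, is therefore not shown to be a difference between the genotypes. Within single mice, Trdc rose from DN3 to DN4 in WT05, WT46 and WT48 by 1.04, 0.47 and 1.118 on the log2 scale and changed by -0.22, 0.45 and 0.46 in KO45, KO49 and KO51. Mouse KO45 alone went down for Trdc, Sox13 (-0.44) and Cd163l1 (-1.45), and it was the mouse with the most Cd8a in DN4.

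The genes most like Trdc by Pearson correlation of log2 CPM over the 13 libraries were Sox13 (0.97), Gramd4 (0.97), Etv5 (0.96), 5830411N06Rik (0.94) and Asah1 (0.94). Etv5 is a transcription factor of IL-17-type gamma delta cells. Over the 7 DN4 libraries alone they were Tcrg-C1 (0.99), Gria3 (0.99), Tcrg-V4 (0.99), Sox13 (0.99) and Wfs1 (0.99). For Maf in DN4 they were Cpa3 (0.999), Gria3 (0.99), Atp8b4 (0.98), Slc27a6 (0.98) and Exoc4 (0.97). Cpa3, a carboxypeptidase gene of mast cells and of early progenitors, was at 36.2, 15.5, 18.5 and 46.1 CPM in Wt DN4 and at 7.16, 14.2 and 12.5 CPM in KO DN4. In DN3, where Maf was low, Cpa3 was at 17.6 to 80.2 CPM. With 7 libraries and 13361 genes, high correlations arise easily, and these are given as a description.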

How the data were processed

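The authors deposited 1 table of read counts per gene for 13 libraries, made with Cutadapt, STAR and featureCounts on mm10 from TruSeq stranded mRNA libraries. The annotation, the strand setting and the handling of reads that map to several places are not given in the sources used here. Per the file headers each column is 1 library, named by stage, genotype and mouse. Gene names came from GENCODE M21 on GRCm38, where 47310 of 47937 gene identifiers were found without their version.

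The members and lists were chosen with earlier results of these data known. Each comparison was run on its own libraries in edgeR 4.0.16 (R 4.3.3): filterByExpr at 10 counts, TMM scaling, glmQLFit and glmQLFTest, Benjamini-Hochberg over all genes and a threshold of 0.05. Levels are CPM on TMM-scaled sizes. DN3 and DN4 libraries of a mouse share its number in their titles, and their deviations from group means correlated at 0.124 to 0.460 over 13361 genes for the 6 mice with both, so the numbers pair the libraries, and a fit with mouse as a block was an alternative. Others were DESeq2 1.42.0, limma-voom (limma 3.58.1), other scalings, filters and omitted libraries. Named genes were the 9 members, segments whose symbols begin with Tcrg- or Trd and have at least 10 counts in 3 libraries (Trg symbols were added after their values were seen), up to 4 called genes per list and stage comparison, markers standing beside a result, and the 5 genes most like Trdc (over 13 and over 7 libraries) and Maf. The fits were tested on simulated counts. Trdc had 965 or more counts in every library, and Maf in DN3 and Trdv4 rest on few.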

Additional observations from a re-analysis of the deposited data

How the results depend on the processing

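Of 96 alternatives, those of the Maf ratio included, 91 kept the count of called members within 1.5 times, or the ratio within its spread. Direction was not part of that count. For KO against Wt in DN3 and in DN4, and for the interaction, the main count was 0, so a kept count there says little. The 4 alternatives that lowered a count by more were all in Wt, DN4 against DN3. In Wt, DN4 against DN3, library totals in place of TMM left 3 of 8 members called in place of 6, and leaving out 1 library left 2 to 6, with 2 without DN3 WT46 or DN3 WT48 and 3 without DN4 WT05. In DN4 between the genotypes, the fit without the 4 B-cell-rich libraries counted 3 members past the threshold in place of 0, and 897 of 12987 genes. It set KO51 alone against 2 Wt libraries, with KO51 assumed to vary like them, and in the contrast from which Maf was chosen, so nothing is read from that count. With mouse as a replicate block 6 members were called in Wt, 5 in KO and 0 in the interaction, and the block changed no call. No paired analysis was possible for KO against Wt because the genotypes share no mouse.

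The genes called also moved. In DN4 between the genotypes 7 were called, 51 by DESeq2 and 0 to 8 without 1 library. From DN3 to DN4 the count was 1723 to 3926 in Wt and 714 to 4499 in KO over all alternatives, against 2903 and 2338.

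Of the tested changes of members, directions turned only where the value had not been called. In DN3 between the genotypes, Sox13 was at 0.15 with library totals and Blk at -0.0197 with limma-voom and -0.0047 without mice WT40 and WT46. Leaving out 1 library each gave -0.15 to 0.21 for Cd163l1, -0.15 to 0.23 for Maf, -0.16 to 0.31 for Tcrg-C1, -0.40 to 0.073 for Sox13 and -0.20 to 0.15 for Blk. From DN3 to DN4, Cd163l1 turned to -0.10 in Wt and 0.39 in KO without the B-cell-rich libraries, and ran from -0.35 to 0.25 in KO over single omissions. In the interaction without the B-cell-rich libraries, Cd163l1 was at 0.47, Sox13 at 0.29 and Tcrg-C2 at 0.0247. The causes were not tested. The depth of Trdv4 limits it to a bound.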

Other observations

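Some segments of the TCR loci had too few counts for a test and are given as counts, named after their values were seen. Trdv3 had 0 counts in the 6 DN3 libraries and 4, 5 and 0 in KO DN4 and 3, 2, 2 and 1 in Wt DN4. Trgj3 had 5, 9 and 3 counts in KO DN3 and 0, 5 and 9 in Wt DN3, against 0, 0 and 1 in KO DN4 and 1, 1, 0 and 1 in Wt DN4. Tcrg-V5 had 0 to 9 counts in DN3 and 0 to 12 in DN4, and Tcrg-V6 had 0 to 7 and 2 to 12.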
